A study of Mus musculus with 6 samples.

Results

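The genes described here are the 7 long transcripts of the Dlk1-Dio3 imprinted locus on mouse chromosome 12 that the gene table names, out of 34361 genes in the table. They are Dlk1, Meg3, Rtl1, Rian, Mirg, Dio3os and Dio3, and they were taken by gene name. The set was chosen by the difference between the groups in these same libraries, the measured counts and FPKM, so every difference between groups is given for them as a description, with no test. RNA came from the femora of 6 mice by the design text, 3 in each group, and was sequenced as poly(A)-selected, stranded libraries. The first group, A1 to A3, had a gene knockout induced with tamoxifen. The design text names the gene as Fshr, the receptor for follicle-stimulating hormone, while the samples' own treatment label gives FGF21, so these libraries are called knockout-labelled here. The second group, B1 to B3, was injected with corn oil and received no tamoxifen, so drug and knockout cannot be told apart. The labels give no age, strain or Cre driver, and do not state whether the femora belonged to animals with an ovariectomy or a fracture, the setting of the series title.

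Imprinted genes are transcribed mainly from the chromosome inherited from 1 parent. At the Dlk1-Dio3 locus the protein-coding genes Dlk1, Rtl1 and Dio3 are expressed mainly from the paternal chromosome, and the noncoding RNAs Meg3, Rian and Mirg from the maternal chromosome, under the control of a differentially methylated region between Dlk1 and Meg3. The noncoding RNAs lie in a row on the same strand and host small nucleolar RNAs and a large cluster of microRNAs. The locus is active in the embryo, placenta, brain and muscle precursors and is largely silenced in many adult tissues, and Dio3 is the member that is often only partly imprinted. These libraries do not separate the parental chromosomes, so every value is a sum over both.

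In build GRCm39, the order along chromosome 12 is Dlk1 (chr12:109418749-109429262, plus strand), Meg3 (chr12:109506879-109538165, plus), Rtl1 (chr12:109555627-109566764, minus), Rian (chr12:109570242-109628150, plus), Mirg (chr12:109696198-109715894, plus), Dio3os (chr12:110241818-110244558, minus) and Dio3 (chr12:110245502-110247531, plus). Dlk1 and Meg3 are separated by 77.6 kb. Mirg and Dio3os are separated by 526 kb, by far the widest gap between neighbouring members. Dio3os and Dio3 point away from each other and lie 943 bases apart.

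The following windows of RefSeq sequence (GRCm38.p6, which is not the build of the deposited coordinates) are shown because they lie before the starts of the genes at both ends of the locus, the ends that differed in opposite directions. Each holds the 250 bases before the RefSeq start, read in the direction of transcription. That start can differ from the starts of the deposited transcripts, so a window need not lie before the transcript that held the counts. The Dlk1 transcript with most counts in the knockout-labelled libraries starts at 109419381, while the deposited gene starts at 109418749. The RefSeq span of Dio3 is 1868 bases, against 2030 in the deposited table. The windows are chr12:109452573-109452822 (plus strand) for Dlk1, chr12:109540746-109540995 (plus) for Meg3, chr12:110278069-110278318 (minus) for Dio3os and chr12:110278980-110279229 (plus) for Dio3. Capitals mark matches, on either strand, to TGACGTCA (the cAMP response element), TATAAA (the TATA box), CCAAT and GGGCGG (the GC box).
Dlk1: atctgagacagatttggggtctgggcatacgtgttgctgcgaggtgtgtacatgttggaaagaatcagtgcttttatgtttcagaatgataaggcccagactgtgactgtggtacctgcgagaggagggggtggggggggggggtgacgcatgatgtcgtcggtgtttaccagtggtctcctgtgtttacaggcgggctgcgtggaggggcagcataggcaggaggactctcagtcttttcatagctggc
Meg3: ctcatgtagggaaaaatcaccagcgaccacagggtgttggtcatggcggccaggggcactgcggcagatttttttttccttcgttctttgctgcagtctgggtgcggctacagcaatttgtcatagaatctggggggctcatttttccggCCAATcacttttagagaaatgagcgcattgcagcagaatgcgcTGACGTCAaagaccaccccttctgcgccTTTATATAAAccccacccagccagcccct
Dio3os: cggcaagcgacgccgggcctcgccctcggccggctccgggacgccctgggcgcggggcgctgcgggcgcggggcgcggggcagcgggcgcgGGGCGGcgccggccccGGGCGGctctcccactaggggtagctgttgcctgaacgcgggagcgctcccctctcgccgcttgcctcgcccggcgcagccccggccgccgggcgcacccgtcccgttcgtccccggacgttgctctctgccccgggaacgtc
Dio3: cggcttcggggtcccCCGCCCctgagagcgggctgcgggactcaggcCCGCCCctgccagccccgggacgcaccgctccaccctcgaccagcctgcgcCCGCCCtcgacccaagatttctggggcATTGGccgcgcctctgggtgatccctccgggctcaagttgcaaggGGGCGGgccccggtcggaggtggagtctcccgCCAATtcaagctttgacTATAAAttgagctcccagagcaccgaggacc
The Dlk1 window held no match to any of the 4 motifs. RefSeq has 2 entries for Meg3. The second, chr12:109545148-109545397 (plus strand, no CpG), held none of the 4 motifs and is not printed. The Meg3 window shown, from the first entry, held TGACGTCA with its first base 57 bases before the start, a motif present in 1.55% of 32851 mouse promoter windows of the same length. It also held CCAAT at 100 bases and TATAAA on both strands, 25 and 29 bases before the start, which overlap in the run of capitals nearest the start. The Dio3 window held TATAAA 31 bases before the start, CCAAT at 48 and 125 bases, and GGGCGG at 80, 152, 203 and 235 bases. Among all windows 12.4% held TATAAA, 33.9% held CCAAT and 32.7% held GGGCGG. The Dio3os window held GGGCGG at 143 and 159 bases and had 82.0% G and C with 44 CpG, against a median over all windows of 52.4% and 6. The Dio3 window had 69.6% and 21 CpG, the Meg3 window shown 52.4% and 10, and the Dlk1 window 54.8% and 8. A match is a description of the letters only. Of the 7 members, 6 had an entry in the RefSeq promoter table, all but Rtl1.

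RefSeq places 113 mature microRNA names from 61 genes in the locus. By the RefSeq gene spans, 28 of these names lie within Rtl1, 19 within Mirg, 6 within Rian and 3 within Meg3. The RefSeq span of Rtl1 is 39519 bases, against 11138 in the deposited table, so some of the 28 lie outside the span given above. Of the 28, 24 are on the strand opposite Rtl1 and 4 on its own strand. Some are shown because they come from inside members described here, with the seed (bases 2 to 8) in capitals: miR-770-5p from Meg3, miR-127-3p from the strand opposite Rtl1, miR-370-3p from Rian, and miR-453 and miR-496a-5p from Mirg.
mmu-miR-770-5p: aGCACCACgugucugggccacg
mmu-miR-127-3p: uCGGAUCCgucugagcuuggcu
mmu-miR-370-3p: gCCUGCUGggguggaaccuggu
mmu-miR-453: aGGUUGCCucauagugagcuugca
mmu-miR-496a-5p: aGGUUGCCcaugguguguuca
The last pair share the seed GGUUGCC. In all, 18 names fall into 9 shared seeds and the 113 names hold 104 different seeds. Poly(A) libraries of this size range do not measure mature microRNAs, so no level is given for them.

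Levels are given as FPKM (fragments per kilobase of transcript, scaled to depth, as deposited) and as the deposited estimated counts. Library totals were 65.8 to 73.5 M estimated counts. About 4 counts were taken as 1 read pair, so the depth was about 16.4 to 18.4 M read pairs. This divisor is approximate. In genes of 1 exon longer than 1500 bases, 43.8% to 49.2% of counts above 0 and up to 12 were multiples of 4. Most of these low counts were therefore not multiples of 4, and the share without such a step was not worked out. Read pairs, their intervals and the floor below depend on this divisor. A gene at 0 could hold up to 3 read pairs, or 12 counts (0.163 to 0.182 CPM, counts scaled to a fixed library total, counting error only). Fshr and Fgf21 were at 0 counts in all 6 libraries, so neither checks the labels. Libraries of 1 group differed little more than counting error at that divisor. The median chi-square over genes was 1.54 to 1.65 times its expectation within groups and 71.1 to 75.7 times between groups. Within groups, 12.4% to 13.7% of genes lay beyond the 95% limit, where 5% is expected. The labels do not describe how tissue was handled for each animal, so a p-value here measures the spread between these libraries, which may be in part technical. The 2 groups differed very widely, with 57.5% of 20388 tested genes past the threshold (adjusted p under 0.05 by edgeR with Benjamini-Hochberg correction), 28.7% higher and 28.8% lower in the knockout-labelled libraries.

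Along the locus, Dlk1, Meg3, Rian and Mirg were higher in the knockout-labelled libraries and Dio3os and Dio3 were lower, while Rtl1 was at or near 0 in both groups. The 4 higher members had log2 fold changes between 2.14 and 2.68, and Dio3os and Dio3 had -4.29 and -4.04. These use TMM scaling in edgeR, while the ratios of read pairs given for each member are scaled to library totals. The groups did not overlap in CPM in 4 members that were higher (31.9% of all tested genes had this pattern) and 2 that were lower (32.6% of all). Of the 7 members, 6 passed the filter on low counts. Because the contrast chose the members, nothing is read from these counts. On the scale of size, log2 fold changes of -4 or less occurred in 0.476% of tested genes and of 2 or more in 3.96%, counting genes past the threshold. Both limits lie just inside the members' own values, so these shares describe all genes and do not show the members as rare.

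**Figure D1:**
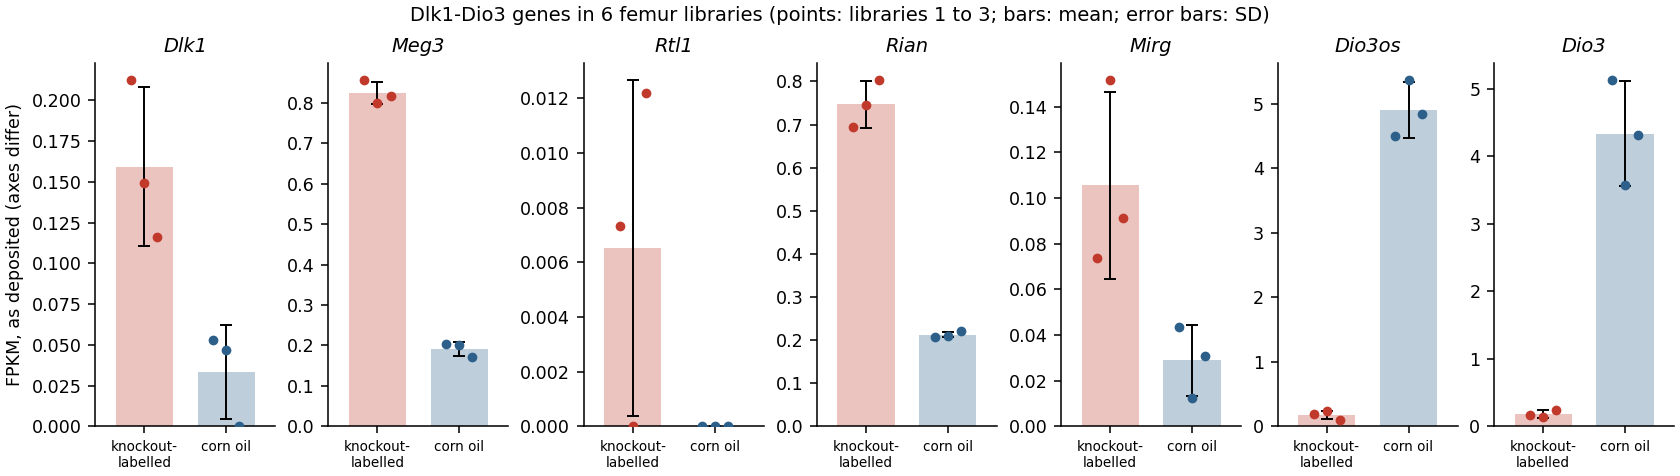
Deposited FPKM (vertical axes, which differ between genes) of the 7 members in the 3 knockout-labelled and 3 corn oil libraries, with points for libraries, bars for the mean and error bars for the SD. Dlk1, Meg3, Rian and Mirg sit higher in the knockout-labelled libraries, Dio3os and Dio3 sit far lower, and Rtl1 stays at or below 0.0122 FPKM.

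Dio3 encodes the type 3 iodothyronine deiodinase, a selenoenzyme that inactivates thyroid hormone by removing an inner-ring iodine. Its level was 0.168, 0.141 and 0.247 FPKM in knockout-labelled libraries 1 to 3 and 5.13, 3.57 and 4.31 FPKM in control libraries 1 to 3. All 3 control libraries lay far above all 3 knockout-labelled ones. The means were 0.185 ± 0.0549 FPKM and 4.34 ± 0.776 FPKM (SD, n = 3 each), and the log2 fold change was -4.04 (SE 0.25). The knockout-labelled values rest on 26, 22 and 41 estimated counts, about 22 read pairs in all, against 498 in the controls. Scaled to the library totals, this is 22.3-fold lower, with an exact 95% interval of 14.5 to 35.8 that covers counting error only. The longer of its 2 transcripts held 95.3% to 96.5% of the Dio3 counts in the controls. In the knockout-labelled libraries that share was 73.1%, 13.6% and 70.7%, on counts too few to order them.

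Dio3os is the noncoding RNA transcribed away from Dio3 on the opposite strand. It stood at 0.195, 0.233 and 0.101 FPKM in the knockout-labelled libraries and at 4.50, 5.36 and 4.85 FPKM in the controls. The groups were as far apart as for Dio3, with means of 0.176 ± 0.0681 and 4.90 ± 0.430 FPKM (SD, n = 3 each) and a log2 fold change of -4.29 (SE 0.36). About 28 read pairs stood against 762, which is 26.8-fold lower (exact 95% interval 18.4 to 40.5, counting error only). The ratio of Dio3os to Dio3 counts ranged from 0.561 to 2.14 in the knockout-labelled libraries and from 1.19 to 2.02 in the controls, so these ranges overlap. Dio3os has 5 transcripts in the table. Its longest held 59.2% to 67.4% of Dio3os counts in the controls and a transcript of 4 exons held 22.4% to 34.5%. The kit keeps the strand, but the strand setting used in counting is not given in the sources used here. The spans of both genes do not overlap in the table.

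Dlk1, also called preadipocyte factor, is a transmembrane protein with epidermal growth factor repeats that restrains adipocyte differentiation and is made by muscle progenitors and other immature cells. Its estimated counts were 89, 61 and 53 in the knockout-labelled libraries and 22, 21 and 0 in the controls. The lowest knockout-labelled count was above the highest control count, at levels of 0.159 ± 0.0488 against 0.0331 ± 0.0288 FPKM (SD, n = 3 each). The log2 fold change was 2.68 with a wide SE of 1.15. In read pairs the sums were 51 and 11, a ratio of 4.71 (exact 95% interval 2.43 to 10.03, counting error only). The table lists 5 Dlk1 transcripts. One of 5 exons and 1703 bases held 77.5%, 88.5% and 100% of Dlk1 counts in the knockout-labelled libraries and none in controls 1 and 2. There, all 22 and 21 counts were assigned to the longest transcript (4653 bases), about 5 read pairs each, so the assignment rests on very few fragments.

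Meg3, a long noncoding RNA that is often studied as a growth suppressor, showed little spread within each group. It measured 0.855, 0.800 and 0.818 FPKM in the knockout-labelled libraries. In the controls it measured 0.204, 0.200 and 0.172 FPKM. The means of 0.824 ± 0.0283 and 0.192 ± 0.0177 FPKM (SD, n = 3 each) lay apart by far more than either SD, with a log2 fold change of 2.51 (SE 0.079). The read pairs, 890 against 212, gave a ratio of 4.27 with library totals (exact 95% interval 3.67 to 4.98, counting error only). The log2 fold change of 2.51, with TMM scaling, is 5.70-fold and lies above this interval. With library totals the log2 fold change was 2.09. Of 48 Meg3 transcripts in the table, 41 had a value above 0. Transcripts running from within 10 bases of the start of the gene to within 10 bases of its end held 65.0%, 57.4% and 55.3% of Meg3 counts in the knockout-labelled libraries and 49.3%, 55.8% and 12.5% in the controls. Control library 3 differed in this assignment, with 42.4% of its Meg3 counts on transcripts that end before the 3′ end of the gene, against 12.2% to 16.6% in the other 5 libraries. That share is 108 estimated counts, divided among many overlapping transcripts, so the assignment rests on few fragments. The gene total of control library 3, 255 counts, was near the 294 and 301 of controls 1 and 2.

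Rian, the host of a cluster of C/D box small nucleolar RNAs, followed the same pattern. Its values were 0.694, 0.745 and 0.802 FPKM in the knockout-labelled libraries and 0.208, 0.210 and 0.220 FPKM in the controls. No library of 1 group reached the range of the other. The means were 0.747 ± 0.0542 and 0.213 ± 0.00647 FPKM (SD, n = 3 each), and the log2 fold change was 2.22 (SE 0.061). With library totals, 1350 against 394 read pairs gave a ratio of 3.48 (exact 95% interval 3.11 to 3.91, counting error only). The log2 fold change of 2.22, with TMM scaling, is 4.66-fold and lies above this interval. With library totals the log2 fold change was 1.80. Rian has 51 transcripts in the table, and the 24 that start in the last 19.3 kb of its 57.9 kb held 93.7% to 95.9% of its counts in the knockout-labelled libraries and 88.5% to 98.1% in the controls. The counts of Rian were 1.36 to 1.63 times those of Meg3 in the knockout-labelled libraries and 1.71 to 2.13 times in the controls. The nearest values, 1.63 and 1.71, lie close together, and control library 1 rests on 126 and 73.5 read pairs. Counting error was not set against this ratio, so no difference between groups is read from it. This ratio of counts is not per length, so it compares libraries and not the levels of both genes.

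Mirg hosts the distal microRNA cluster. Its estimated counts were 41, 82 and 56 in the knockout-labelled libraries and 27, 9 and 19 in the controls. The groups did not overlap, although 41 and 27 counts lie only a few read pairs apart. The means were 0.105 ± 0.0408 and 0.0290 ± 0.0156 FPKM (SD, n = 3 each), with a log2 fold change of 2.14 (SE 0.51). A ratio of 3.27 followed from 45 against 14 read pairs (exact 95% interval 1.76 to 6.45, counting error only).

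Rtl1 encodes a retrotransposon-derived protein known from the placental capillaries and from fetal muscle. Its estimated counts were 4, 0 and 7 in the knockout-labelled libraries and 0 in all 3 controls. Every library lay below the 12 counts that a count of 0 allows, so no fold is given. Most of the microRNAs placed within its RefSeq span lie on the opposite strand.

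The order of levels depends on the length by which fragments are divided. By gene FPKM the order in the knockout-labelled libraries was Meg3, Rian, Dio3, Dio3os, Dlk1, Mirg and Rtl1. The ranges of Meg3 and Rian overlapped slightly (0.800 to 0.855 and 0.694 to 0.802 FPKM), and those of Dio3, Dio3os, Dlk1 and Mirg overlapped from each to the next. In the controls the order was Dio3os, Dio3, Rian, Meg3, Dlk1, Mirg and Rtl1. There Dio3os and Dio3 overlapped with each other, as did Dlk1 and Mirg. Summing the FPKM of single transcripts instead gave 10.9 ± 0.219 for Rian, 7.34 ± 0.183 for Meg3 and 0.511 ± 0.156 for Dlk1 in the knockout-labelled libraries (SD, n = 3). On that scale Rian stood above Meg3, and Dlk1 and Mirg (0.359 ± 0.0713) stood above Dio3os (0.307 ± 0.147) and Dio3 (0.217 ± 0.0505). The first 4 places in the controls were the same on both scales. Within each library, the gene FPKM of Dio3 was 0.176 to 0.302 times that of Meg3 in the knockout-labelled group and 17.9 to 25.1 times in the controls.

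The stretch between the members was examined gene by gene. The interval from Dlk1 to Dio3 spans 829 kb and holds 34 genes of the table, 27 of them not members. Of these, 20 are small RNA genes (12 miRNA, 6 snoRNA and 2 misc_RNA), none with more than 1 count in any library. The other 7 are long noncoding RNAs or a pseudogene, 3 of which reached 12 counts. Gm34667, a long noncoding RNA starting 525 kb beyond the start of Dlk1, had 0 counts in all 3 knockout-labelled libraries and 36, 45 and 24 in the controls. It was at least 8.60-fold lower, with a floor of 12 counts over the group. The gene was called lower, but it passed the filter only through the controls. A call could therefore only be lower, and nothing is read from it. Its call is lost when counts are divided by 4, because the gene then drops below the filter. Gm56525, 497 kb from the start of Dlk1, had 0 counts against 5, 16 and 20 and was below the filter. Gm34719 had 0 against 0, 8 and 5, and Gm40576 had 0 against 6, 0 and 0. Each of these 4 genes between Mirg and Dio3os was at 0 in every knockout-labelled library. For Gm34719 and Gm40576 this says little, since the controls held only 13 and 6 counts in all. Genes above 0 numbered 24534 to 24942 in the knockout-labelled libraries and 25832 to 25977 in the controls. The share of all genes at 0 in 1 group only was not counted, so no pattern of the stretch is read from this. The processed pseudogene Gm3379, which also lies between Mirg and Dio3os, 442 kb from the start of Dlk1 and before these 4, had 193, 168 and 201 against 220, 259 and 257 counts (log2 fold change 0.06, SE 0.08, edgeR adjusted p = 0.79). Reads of a pseudogene may belong in part to its parent gene. Between Dlk1 and Mirg, Gm34081 and B830012L14Rik held at most 6 counts over a group.

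**Figure D2:**
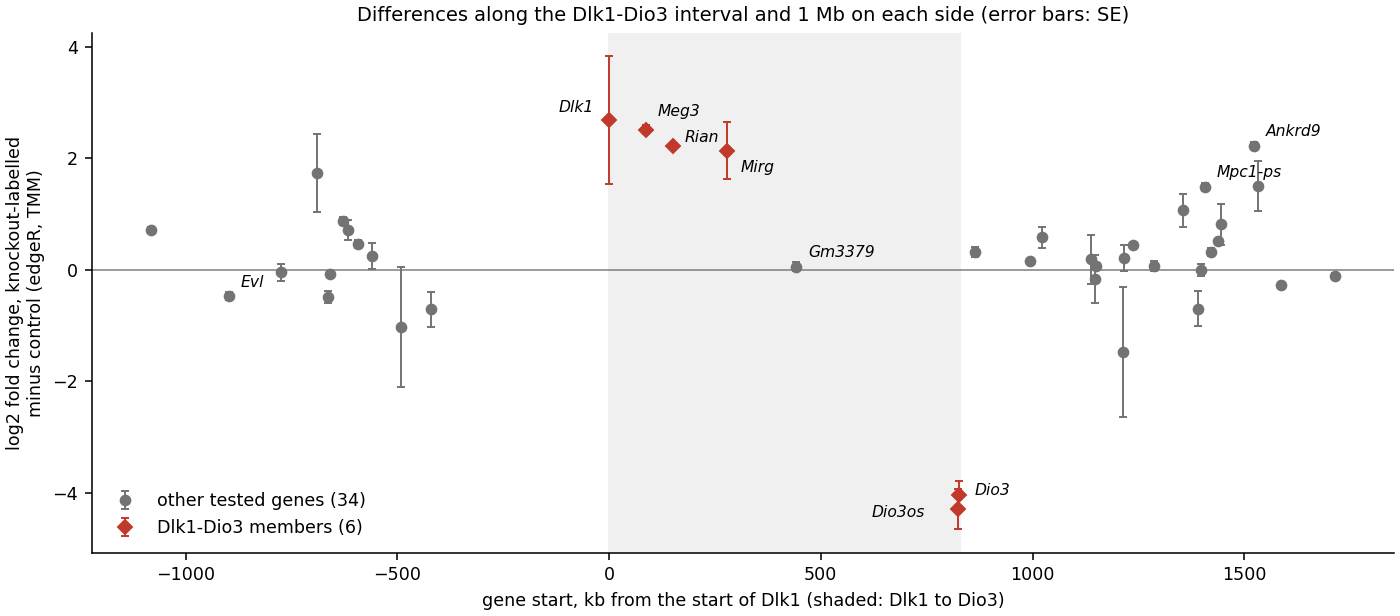
Log2 fold change (vertical, knockout-labelled minus control, error bars SE) of tested genes by the distance of their start from the start of Dlk1 in kb (horizontal), members as diamonds and 34 other genes as circles, without Gm34667, which has 0 counts in 1 group. Dlk1 to Mirg lie between 2.14 and 2.68, Dio3os and Dio3 at -4.29 and -4.04, and the flanking genes between -1.48 and 2.22.

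The flanking genes were called in both directions. Within 1 Mb before Dlk1, 4 of 12 tested genes were higher, 1 was lower and 7 did not pass, with a median log2 fold change of 0.10. Within 1 Mb beyond Dio3, 11 of 21 were higher, 1 was lower and 9 did not pass, with a median of 0.20, beside -0.02 for all tested genes. These splits depend on scaling: with library totals alone, which lower the median gene by 0.42, 4 flanking genes were higher and 11 lower. Of all 20388 tested genes, 28.7% were higher and 28.8% lower with TMM scaling, and 3379 were higher and 10339 lower with library totals. The most abundant genes before Dlk1 were Evl, an actin regulator, Yy1, a zinc finger protein that binds several imprinted control regions, and Wars1, a tryptophan tRNA ligase. Evl fell by 0.48 on the log2 scale with TMM scaling (SE 0.072, edgeR adjusted p = 2.7e-05) and by 0.90 with library totals. Its level was 17.0 ± 0.319 FPKM in the controls and 9.09 ± 0.733 FPKM in the knockout-labelled libraries (SD, n = 3 each). Here and below, log2 fold changes use TMM scaling unless stated and FPKM is as deposited, so their sizes differ. Yy1 had a log2 fold change of -0.08 (SE 0.036, edgeR adjusted p = 0.083), at 13.7 ± 0.536 FPKM in the controls and 9.66 ± 0.0363 in the knockout-labelled libraries, and it was called lower with library totals. Wars1 was higher by 0.46 (SE 0.074, edgeR adjusted p = 3.8e-05) with TMM scaling but did not pass with library totals. Beyond Dio3, Ankrd9 rose by 2.22 (SE 0.064, edgeR adjusted p = 6.2e-12), from 6.02 ± 0.438 to 20.9 ± 0.456 FPKM. The pseudogene Mpc1-ps rose by 1.48 (SE 0.065, edgeR adjusted p = 1.2e-10), with reads that its parent gene may share. Hsp90aa1, a heat shock chaperone, was higher by 0.44 with TMM scaling (edgeR adjusted p = 1.5e-08) at 43.6 ± 0.624 against 43.3 ± 0.511 FPKM, and it did not pass with library totals.

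Bone markers of the labelled tissue were present in both groups. Marker genes of several cell types moved with the groups, and their part in the differences of the locus was not tested. All 8 skeletal muscle markers rose, with summed levels of 31052 to 31609 FPKM in the knockout-labelled libraries and 6571 to 6771 FPKM in the controls, 4.70-fold higher. Of 8 markers of satellite cells and immature muscle, 6 rose, 1 fell and Chrng was at 0 in all libraries. Their sum was 124 to 128 against 8.96 to 10.3 FPKM, mostly from cardiac actin Actc1 at 105 ± 2.25 against 2.23 ± 0.263 FPKM (SD, n = 3 each). All 8 osteoblast and bone matrix markers fell, from sums of 14954 to 14989 to 2761 to 2802 FPKM, 5.38-fold lower. All 8 osteoclast markers fell as well, from 4843 to 4866 to 642 to 657 FPKM, 7.45-fold lower. All 8 adipocyte markers rose, from 71.7 to 73.3 to 352 to 360 FPKM, 4.91-fold higher. The 8 erythroid markers rose too, with sums 2.02-fold higher. The FPKM sums of the cartilage, stromal, endothelial and nerve lists were 3.49-fold, 1.63-fold, 1.25-fold and 1.96-fold lower, but their genes were not lower throughout. With TMM scaling, 4 of 6 tested cartilage genes, 3 of 8 stromal, 4 of 8 endothelial and 2 of 7 nerve genes were higher, and 2, 5, 1 and 2 were lower. With library totals 3, 1, 0 and 1 were higher and 2, 6, 7 and 3 lower. Over all 20388 tested genes, 28.7% were higher and 28.8% lower with TMM scaling, and 3379 were higher and 10339 lower with library totals. Nefl was at 0 in all libraries. In bulk tissue, fewer cells of a type and less RNA per cell cannot be told apart. Beside these values, FPKM means differed 4.81-fold for Dlk1, 4.29-fold for Meg3, 3.51-fold for Rian and 3.64-fold for Mirg, and 27.8-fold for Dio3os and 23.4-fold for Dio3 in the other direction.

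**Figure D3:**
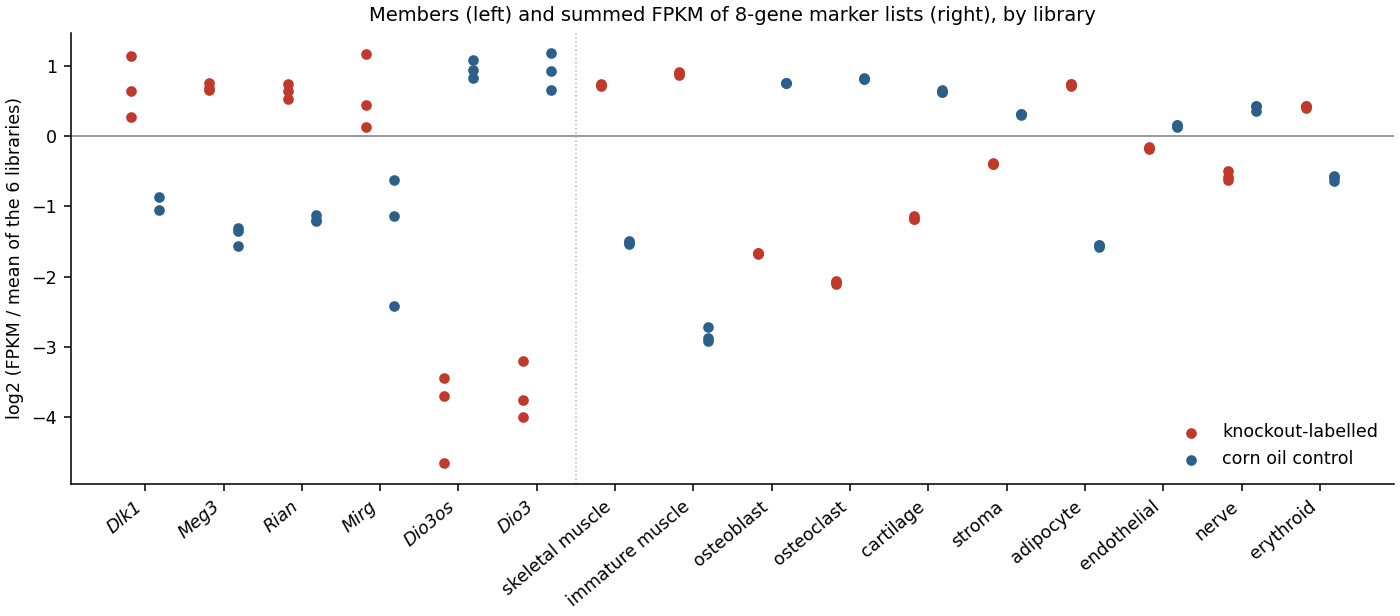
Log2 of FPKM in each library over the mean of the 6 libraries (vertical) for 6 members and for the summed FPKM of 10 marker lists of 8 genes each, red for knockout-labelled and blue for corn oil control libraries. Dlk1 in control library 3 is at 0 and not drawn, and Rtl1 is left out. The libraries of each group lie close together for the marker lists, and Dio3os and Dio3 lie lower in the knockout-labelled libraries than any marker list does.

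The genes whose pattern over the 6 libraries lay nearest to Meg3 were Cep20, the complex I subunit Ndufb7, Tmem201, the muscle and neuronal transcription factor Mef2c and St3gal3. Nearness is the Euclidean distance between centred log2(FPKM + 1) values, among 10205 genes with a mean of at least 2 FPKM, and the distances were 0.0255 to 0.0477. Mef2c, for example, stood at 36.5 FPKM in the knockout-labelled libraries and 23.5 FPKM in the controls on average. Nearest to Dio3 were Galnt6, the proton pump subunit Atp6v1a, Rasl11a, the immunoglobulin segment Igkv14-100 and Serpinf1, which encodes pigment epithelium-derived factor, at distances of 0.249 to 0.280. Serpinf1 averaged 70.4 FPKM in the knockout-labelled libraries and 317 FPKM in the controls, and Atp6v1a 10.9 and 51.2 FPKM. The added 1 compresses the rare members, so that Meg3 spans 0.663 and Dlk1 only 0.278 on this scale against 2.43 for Dio3. For Dlk1 the nearest genes are therefore not listed. Nearness on this scale is not a shared fold difference. FPKM means differed 4.29-fold for Meg3, more than for Mef2c, and 23.4-fold for Dio3, more than for Serpinf1 or Atp6v1a. Igkv14-100, at 0.131 against 4.59 FPKM, did not differ by less than Dio3.

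Imprinted genes of other loci went in both directions. Of 18 tested genes of other loci that were listed as paternally expressed, 7 rose, 6 fell and 5 did not pass (median log2 fold change 0.08, against -0.02 for all genes). With library totals 6 rose and 9 fell. Among all 20388 tested genes, 28.7% rose and 28.8% fell with TMM scaling, and 3379 rose and 10339 fell with library totals. Slc38a4, an amino acid transporter, rose by 2.56 (SE 0.072, edgeR adjusted p = 3.3e-11), from 1.64 ± 0.0956 to 7.21 ± 0.435 FPKM (SD, n = 3 each). Snrpn rose by 2.28 (SE 0.098), from 3.81 ± 0.390 to 13.8 ± 0.903 FPKM. Plagl1, a zinc finger regulator of an imprinted gene network, fell by 1.53 (SE 0.073), from 7.22 ± 0.367 to 1.85 ± 0.141 FPKM. The growth factor gene Igf2 fell by 0.65 (SE 0.054), from 10.4 ± 0.194 to 4.94 ± 0.317 FPKM. Peg3 rose by 1.08 (SE 0.15) and Sgce fell by 0.67 (SE 0.061), with edgeR adjusted p of 5.6e-06 or below for these 5 genes after Slc38a4.

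Of 13 tested genes of other loci that were listed as maternally expressed, 6 rose, 6 fell and 1 did not pass (median -0.10). Whether the genes of either list are imprinted in femur was not measured. With library totals 4 rose and 8 fell, and 2 genes, Ube3a and Cdkn1c, changed direction. The shares over all 20388 tested genes were 28.7% and 28.8% with TMM scaling, and 3379 rose and 10339 fell with library totals. H19, the noncoding RNA beside Igf2, rose by 2.20 (SE 0.026, edgeR adjusted p = 2.5e-15), from 97.0 ± 1.88 to 333 ± 5.42 FPKM (SD, n = 3 each). H19 and its neighbour Igf2 thus differed in opposite directions. Cobl rose by 1.96 (SE 0.048) and Zim1 by 2.46 (SE 0.18), while Grb10, an adaptor that restrains insulin signalling, fell by 0.41 (SE 0.037). Their edgeR adjusted p-values were 5.2e-11, 2.1e-06 and 8.3e-07.

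The thyroid hormone list covers the genes around the substrate of the Dio3 enzyme. Of 15 tested, 10 rose, 2 fell and 3 did not pass (median 0.45). With library totals, 6 rose and 5 fell, Ncor1 changed direction and the median was 0.03. For all 20388 tested genes, 28.7% rose and 28.8% fell with TMM scaling, and 3379 rose and 10339 fell with library totals. Dio2, the deiodinase that activates thyroid hormone, fell by 0.47 (SE 0.062, edgeR adjusted p = 2.9e-04), from 3.03 ± 0.0664 to 1.63 ± 0.126 FPKM (SD, n = 3 each), while Dio1 did not pass the filter on low counts. Of the receptors, Thrb rose by 1.17 (SE 0.12, edgeR adjusted p = 2.2e-06), from 0.962 ± 0.134 to 1.61 ± 0.0452 FPKM. Thra was at 17.9 ± 1.02 against 22.8 ± 0.750 FPKM with a log2 fold change of 0.08 (SE 0.051, edgeR adjusted p = 0.13), and it was called lower with library totals. The transporter Slc16a10 rose by 1.20 (SE 0.029, edgeR adjusted p = 4.0e-10). Thrsp, a thyroid hormone responsive gene of lipid-making tissue, rose by 3.78 (SE 0.15, edgeR adjusted p = 8.0e-12), from 2.86 ± 0.493 to 29.2 ± 0.595 FPKM, beside adipocyte markers that were 4.91-fold higher in sum. Klf9 and Hr, 2 genes known to be induced by thyroid hormone in several tissues, rose by 0.67 (SE 0.022) and 1.39 (SE 0.11) with TMM scaling. Library totals lower the median gene by 0.42. Thyroid hormone and its action were not measured.

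**Figure D4:**
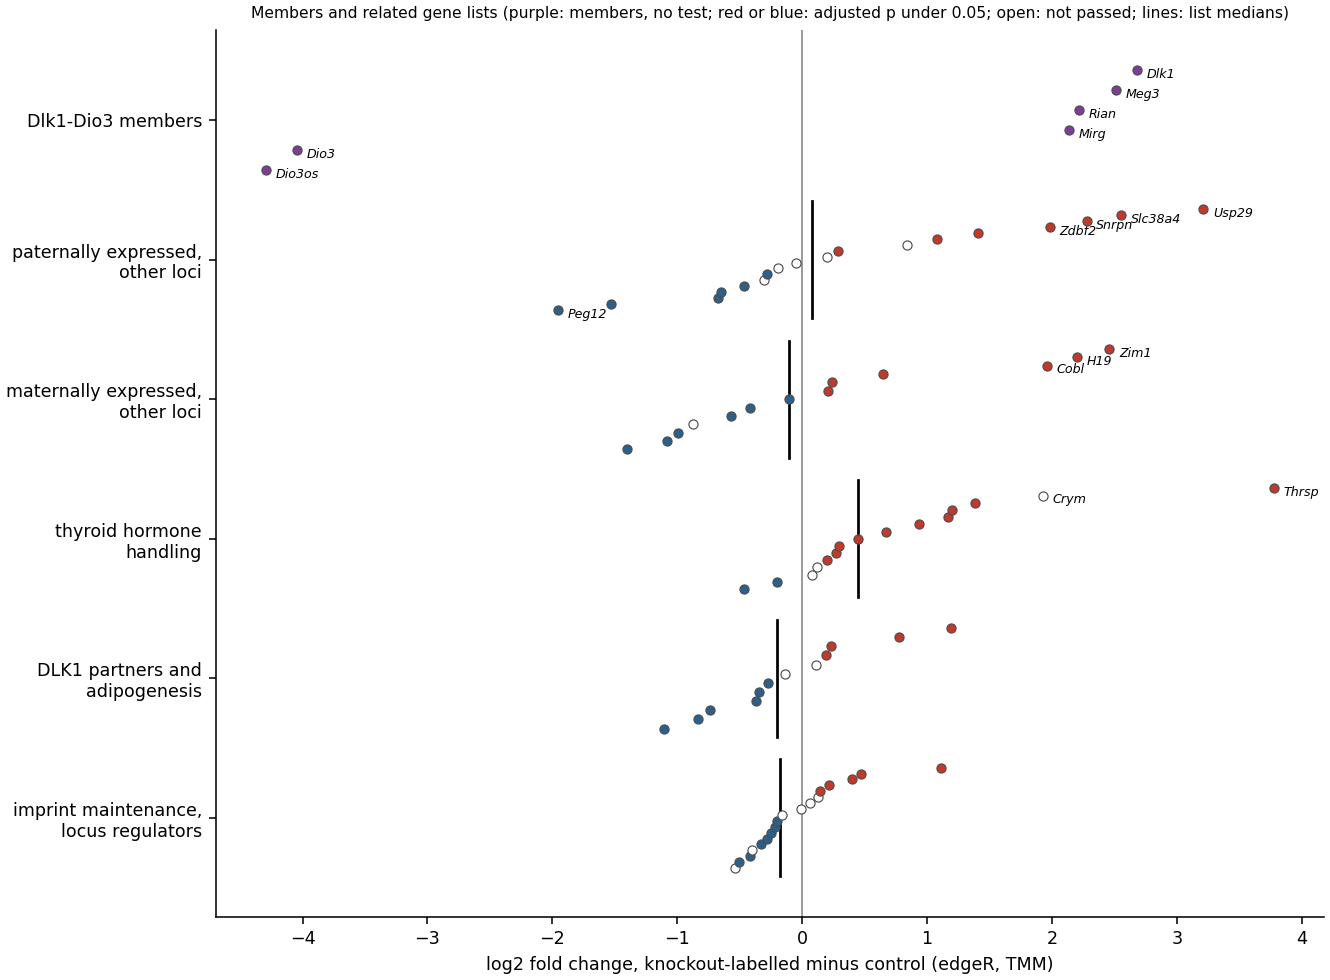
Log2 fold change (horizontal, knockout-labelled minus control, TMM scaling) of the 6 members that passed the filter and of 5 related gene lists (rows), with a vertical line at the median of each list. The imprinted genes of other loci spread to both sides of 0, and Thrsp, at 3.78, is the highest gene drawn.

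Genes around the DLK1 protein and adipogenesis were also split. Of 12 tested, 4 rose, 6 fell and 2 did not pass (median -0.20), and with library totals 2 rose and 9 fell, with Hes1 and Notch3 changing direction. Across all 20388 tested genes, 28.7% rose and 28.8% fell with TMM scaling, and 3379 rose and 10339 fell with library totals. Fn1, fibronectin, which binds the DLK1 protein, fell by 1.11 (SE 0.0049, edgeR adjusted p = 8.9e-14), from 74.2 ± 0.465 to 25.6 ± 0.201 FPKM (SD, n = 3 each). Adam17, the protease that sheds its extracellular part, fell by 0.37 (SE 0.071, edgeR adjusted p = 1.4e-04). Pparg, the main adipocyte transcription factor, rose by 0.78 (SE 0.046, edgeR adjusted p = 1.1e-05), and Sox9, which soluble DLK1 is reported to induce in preadipocytes, rose by 1.19 (SE 0.18, edgeR adjusted p = 9.2e-05). Notch2 fell by 0.74 (SE 0.053) and Cebpd by 0.84 (SE 0.064), both with an edgeR adjusted p of 1.5e-07 or below.

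Regulators of imprints were also split. Of 18 tested, 5 rose, 7 fell and 6 did not pass (median -0.18), and with library totals 1 rose and 15 fell, with Dnmt1 and Ctcf changing direction. All 20388 tested genes gave 28.7% higher and 28.8% lower with TMM scaling, and 3379 higher and 10339 lower with library totals. The 7 of the 18 that fell with TMM scaling were lower under both scalings. Tet1, with the largest fall of these 7, fell by 0.51 with TMM (SE 0.077, edgeR adjusted p = 2.7e-03) and by 0.93 with library totals. Aff3, a protein that binds the control region of this locus in mouse cells, rose by 1.11 (SE 0.16, edgeR adjusted p = 2.4e-05), from 0.824 ± 0.155 to 1.32 ± 0.0753 FPKM (SD, n = 3 each), and was the 1 gene that was higher under both scalings. Mef2a, a factor that activates the locus in muscle, fell by 0.25 (SE 0.013, edgeR adjusted p = 1.1e-06). The imprint-protecting zinc finger gene Zfp445 fell by 0.33 (SE 0.054, edgeR adjusted p = 5.7e-05). Zfp57 was at 0.210 ± 0.0426 against 0.416 ± 0.0333 FPKM and did not pass (edgeR adjusted p = 0.094), though it was called lower with library totals.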

How the data were processed

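The 6 femur libraries, 3 knockout-labelled (A1 to A3) and 3 corn oil controls (B1 to B3), were grouped by their treatment label. The authors deposited FPKM and estimated counts per gene and per transcript. Each deposited transcript count equals FPKM times length times a constant per library, rounded up. The values are thus expected counts derived from coverage, and a fold change rests on fewer fragments than the counts show. Fastp, HISAT2, StringTie and RSEM and the build GRCm39 are named per the submitters' processing notes; their roles and the annotation release are not given in these sources.

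Counts were rounded and tested with edgeR 4.0.16 in R 4.3.3 (filterByExpr, TMM, quasi-likelihood F test, two-sided, Benjamini-Hochberg over 20388 genes at 0.05). An exact permutation test of 3 against 3 cannot go below p = 0.1. SEs were taken from the replicate spread of log2 CPM, with a prior count of 2. FPKM means are as deposited, so their ratios differ from TMM-scaled fold changes. Alternatives were library totals, median-of-ratios size factors, DESeq2 1.42.0, limma 3.58.1 on log2(FPKM + 1) and log2(FPKM + 0.1), no filter, counts divided by 4, a replicate block and leaving out each library. Intervals are exact (Clopper-Pearson on the share of read pairs) at 95%. The steps were tested on simulated counts in which few genes differed, as many higher as lower. That simulation does not test the scaling where groups differ as widely as here.

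The members and lists were chosen with earlier results of these data known. Named genes are the members, other interval genes with counts (small RNAs with at most 1 count only summarised), the 3 most abundant flanking genes on each side, up to 6 genes of each list by adjusted p, the leading markers and the 5 genes nearest to a member. For brevity not all are printed. Where a list gene was named for its role or because it did not pass (Adam17, Dio2, Thrb, Thra, Ncor1, Cdkn1c, Hes1, Notch3, Tet1, Ctcf, Zfp57), it was chosen after its value was seen. Replicate numbers did not pair the libraries, with correlations of deviations of 0.0051, 0.0031 and -0.009. Promoter and microRNA sequences are from RefSeq (GRCm38.p6).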

Additional observations from a re-analysis of the deposited data

How the results depend on the processing

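The members kept their direction under every alternative that gave a value. Their log2 fold changes ranged from -4.46 to -2.16 for Dio3, -4.71 to -2.33 for Dio3os, 2.10 to 3.15 for Dlk1, 2.09 to 2.55 for Meg3, 1.72 to 2.54 for Mirg and 1.80 to 2.27 for Rian. The smallest sizes of Dio3 and Dio3os come from limma on log2(FPKM + 1), where the added 1 compresses low values, and limma gave no value for the other members, which lie below its FPKM filter. With library totals alone, 3379 genes were higher and 10339 lower, against 5860 and 5872 with TMM. Limma called 2805 genes higher on log2(FPKM + 1) and 2772 on log2(FPKM + 0.1), from fewer genes tested. In the flanks, 15 higher and 2 lower genes became 4 and 11 with library totals and 4 and 8 with either limma setting, and 4 were lower with median-of-ratios size factors. Leaving out each library, 2 to 4 flanking genes were lower, with 4 without knockout-labelled library 2. Other interval genes called lower numbered 1, against 0 with counts divided by 4, 2 without a filter, and 1 to 2 when a library was left out (2 without any 1 knockout-labelled library or control library 1). The replicate block, for numbers that did not pair the libraries, gave 5673 higher and 5671 lower genes, and 14 higher flanking genes. Depth limits Rtl1, Mirg and Dlk1, each at 89 estimated counts or fewer in any library. It also limits the fold sizes of Dio3 and Dio3os, at 22 to 41 and 23 to 47 estimated counts in the knockout-labelled libraries.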
